A study of Mus musculus with 4 samples.

Results

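The vascular endothelial growth factor (VEGF) family was read as 9 genes of the deposited gene table, found by their names: the ligands Vegfa, Vegfb, Vegfc and Pgf, the receptors Flt1, Kdr and Flt4, and the co-receptors Nrp1 and Nrp2. All 9 were among the 43346 genes listed, and all 9 passed the filter on low counts that left 20872 genes for testing. The libraries were made from polyadenylated RNA of mouse lung, labelled as epithelial cells although the title of the series speaks of lung tissue. Libraries B and E came from IL-33 transgenic mice, labelled as over-expressing IL-33, and libraries D and F from control mice. The promoter that drives the transgene, the strain, the age and the number of mice in each library are not stated by the labels. The p-values therefore measure only the spread between these libraries, which may in part be technical.

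VEGF ligands are secreted dimers that bind receptor tyrosine kinases, mainly on endothelial cells, and so direct the growth, survival and permeability of vessels. VEGF-A, the product of Vegfa, signals chiefly through the receptor encoded by Kdr, while the receptor encoded by Flt1 binds it tightly with weak kinase activity and also has a soluble form that traps ligand. VEGF-C acts on the receptor encoded by Flt4, which in adult tissue is known for lymphatic endothelium, and the neuropilins Nrp1 and Nrp2 bind both VEGF ligands and class 3 semaphorins. In the mouse lung, alveolar type 1 cells are a known source of VEGF-A and capillary endothelium carries its receptors.

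No gene of the family passed the test between genotypes, and for 9 of the 9 the 2 libraries of each genotype lay further apart in CPM than the genotype means did, as for 11233 of the 20872 genes tested. The 3 receptor genes, Nrp1, Vegfc and Pgf were lowest in transgenic library B and highest in transgenic library E or control library F, whereas Vegfa, Vegfb and Nrp2 were highest in control library D and lowest in control library F. For all 9 genes the values of the 2 transgenic libraries overlapped those of the 2 control libraries. Over all genes tested, 23.9% did not overlap between the groups, and 0% passed an adjusted p of 0.05 in edgeR's quasi-likelihood test. An unadjusted p under 0.05 was reached by 0 of the 9 genes and by 269 of the 20872 tested (1.29%). DESeq2 and limma-voom also called 0 of the 9, with 0.00479% and 0% of all genes called.

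Gene counts summed to 76120696 and 87723745 in the transgenic libraries B and E, and to 80764860 and 85330145 in the control libraries D and F. Il33 stood at 1723 (B) and 874 (E) counts per 1000000 (CPM) in transgenic libraries, against 117 (D) and 108 (F) in control libraries, so the labels and the over-expressed gene matched. The summed level of 4 Y-linked genes, relative to that of D, was 0.554% in B and 9% in E, against 47.5% in F, so sex and genotype overlapped in part. Among the pairs of libraries, E and F were closest, with a standard deviation of 0.147 over genes for their difference in log2 CPM, and B and F were farthest apart at 0.395. Markers of endothelial cells were abundant in every library in spite of the epithelial label. All 20 pan-endothelial markers were detected, and their summed level was 7108 (B) and 11247 (E) CPM in transgenic libraries, against 9060 (D) and 11725 (F) CPM in control libraries. The summed level of 8 pan-epithelial markers ran the other way, at 2035 (B) and 1338 (E) CPM in transgenic libraries, against 1755 (D) and 1316 (F) CPM in control libraries. The 11 alveolar type 2 markers summed to far more, at 63626 (B) and 42072 (E) CPM, against 52126 (D) and 38097 (F) CPM.

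The 250 bases before the RefSeq transcription start are shown for Vegfa, the most abundant ligand, and for Kdr and Flt1, whose levels kept the closest ratio of any pair in the family (GRCm38.p6, minus strand for all 3, written 5′ to 3′ in the direction of transcription). Capitals mark the GC box GGGCGG on either strand, on the reverse strand as CCGCCC. The windows are chr17:46032378-46032627 for Vegfa, chr5:75978456-75978705 for Kdr and chr5:147726012-147726261 for Flt1.
Vegfa: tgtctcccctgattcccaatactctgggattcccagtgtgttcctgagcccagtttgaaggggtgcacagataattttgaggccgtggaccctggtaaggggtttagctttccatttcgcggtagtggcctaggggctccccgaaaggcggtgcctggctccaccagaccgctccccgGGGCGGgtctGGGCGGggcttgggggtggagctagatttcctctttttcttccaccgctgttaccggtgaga
Kdr: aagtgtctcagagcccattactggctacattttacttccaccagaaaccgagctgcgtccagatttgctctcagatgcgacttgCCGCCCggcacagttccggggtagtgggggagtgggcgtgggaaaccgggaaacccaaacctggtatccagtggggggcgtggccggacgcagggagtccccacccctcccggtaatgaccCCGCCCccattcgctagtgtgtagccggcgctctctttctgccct
Flt1: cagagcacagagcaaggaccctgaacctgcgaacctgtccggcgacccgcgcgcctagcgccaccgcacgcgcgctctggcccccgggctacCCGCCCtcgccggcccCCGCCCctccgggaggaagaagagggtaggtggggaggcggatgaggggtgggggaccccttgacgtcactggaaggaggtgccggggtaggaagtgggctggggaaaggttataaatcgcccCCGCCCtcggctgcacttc
The GC box, which the factor Sp1 is known to bind, was present in 9 of 9 windows of the family, taking the outermost start of each gene, and in 32.7% of the 32851 mouse windows of the same length. It occurred at 2 places in the Vegfa window, 2 in that of Kdr and 3 in that of Flt1. The windows of the family ran from 59.2% to 76.4% in G and C, above the median of 52.4% over all windows. The core of ETS factor sites, GGAA, was present in 8 of the 9 windows, all but that of Pgf, and in 93.4% of all windows. The longer CCGGAA, which contains that core, was found only in the window of Kdr, and in 12% of all windows. For the core of the hypoxia response element, ACGTG was in 0 of the 9 windows and 16.6% of all, and GCGTG in 6 of the 9 and 28.2% of all. A second, inner start of Vegfa in RefSeq (window chr17:46025164-46025413) held both ACGTG and GCGTG at 1 place each, and was the only window of the family with ACGTG. These matches describe letters within 250 bases and not factor binding.

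Vegfa, the principal ligand of endothelial growth and permeability, differed far more between libraries of a genotype than between genotypes. Vegfa (ENSMUSG00000023951, chromosome 17, 46016993 to 46032377, GRCm38) stood at 366 (B) and 286 (E) CPM in transgenic libraries, against 402 (D) and 267 (F) CPM in control libraries. The control libraries thus enclosed both transgenic values. The transgenic mean was 326 ± 56.3 CPM and the control mean 334 ± 95.3 CPM (SD, n = 2 each). The log2 fold change was -0.04 (SE 0.24, 95% interval -0.66 to 0.59; edgeR quasi-likelihood adjusted p = 1), and the 4 possible ratios of transgenic over control ran from 0.712 to 1.37. Counts per gene do not separate the splice forms of Vegfa, which differ in how far they diffuse.

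Vegfb, a ligand of the Flt1 receptor known from heart and other metabolically active tissue, was the steadiest gene of the family. It stood at 15.3 (B) and 14.1 (E) CPM in transgenic libraries, against 16.2 (D) and 13.3 (F) CPM in control libraries (chromosome 19, 6982473 to 6987651). Its highest library exceeded its lowest by 1.22 times. The log2 fold change was -0.01 (SE 0.15, 95% interval -0.39 to 0.37; edgeR quasi-likelihood adjusted p = 1). Like Vegfa, it was highest in D and lowest in F.

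Vegfc, the main ligand for lymphatic growth, was at 25.7 (B) and 32.8 (E) CPM in transgenic libraries, against 31 (D) and 34.4 (F) CPM in control libraries (chromosome 8, 54077532 to 54186454). Only library B stood apart, and without it the log2 fold change was 0.01 in place of -0.16 (SE 0.15 with all libraries, 95% interval -0.55 to 0.23; edgeR quasi-likelihood adjusted p = 1).

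Pgf encodes placental growth factor, which binds Flt1 and not Kdr, and was the scarcest ligand. The transgenic libraries held 119 (B) and 344 (E) of its reads, against 230 (D) and 314 (F) in the controls. Scaled, these are 1.58 and 3.88 CPM in the transgenic and 2.85 and 3.69 CPM in the control libraries (chromosome 12, 85166639 to 85177296). Its highest library exceeded its lowest by 2.46 times, the widest span in the family. The value of B (95% Poisson interval 1.30 to 1.88 CPM) lay below that of every other library by more than counting error, the nearest being D at 2.50 to 3.25 CPM. These intervals cover counting error only. The log2 fold change was -0.26 (SE 0.46, 95% interval -1.43 to 0.92; edgeR quasi-likelihood adjusted p = 1). Without library B it was 0.25, and without library E it was -1.06.

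**Figure D1:**
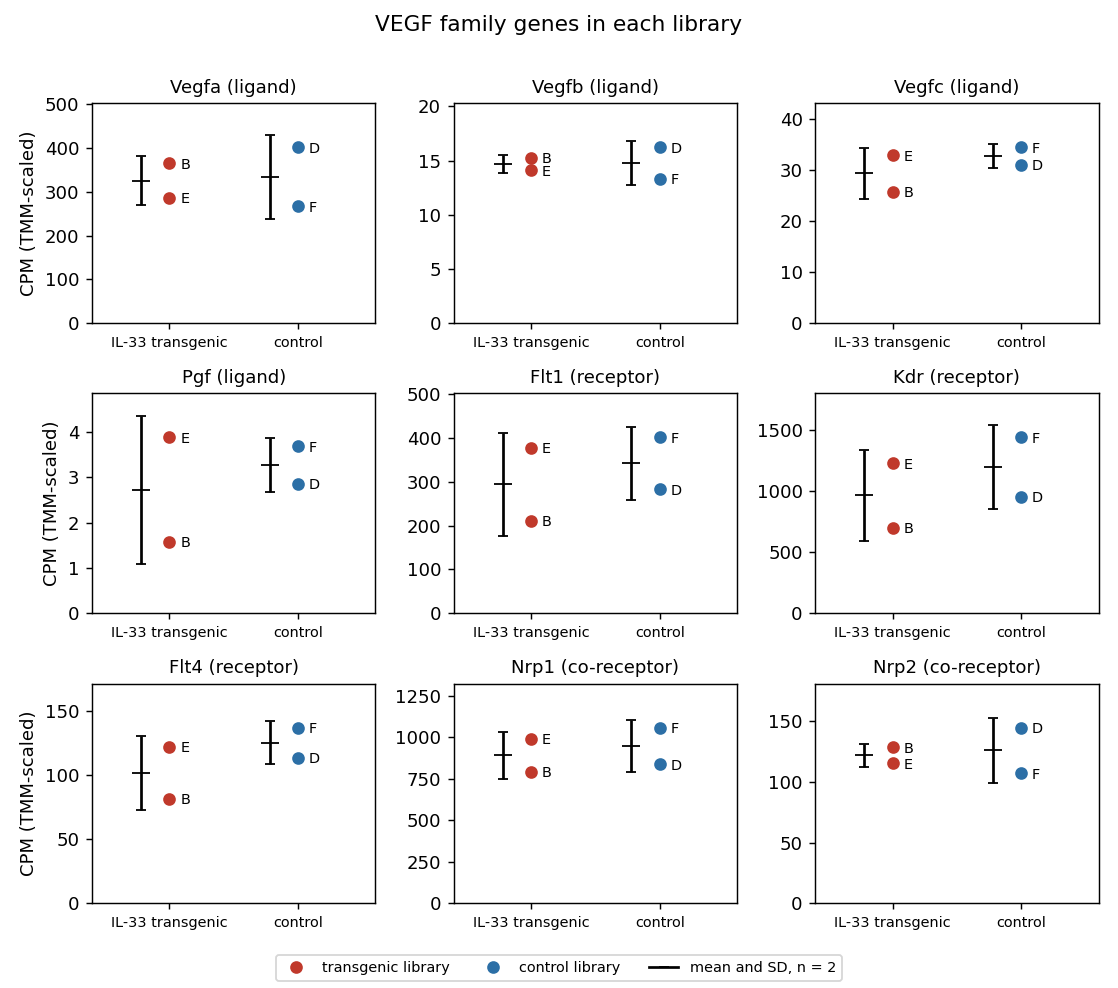
CPM on TMM-scaled library sizes (vertical axes, from 0) for each of the 9 genes in the IL-33 transgenic libraries B and E and the control libraries D and F, with the mean and SD of each group (n = 2). In every panel the groups overlap, as for Kdr with 701 and 1227 CPM for the transgenic pair and 951 and 1438 CPM for the control pair.

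Kdr, which encodes the main signalling receptor for VEGF-A and serves as a marker of lung capillaries, had the largest spread among the receptors. Kdr (ENSMUSG00000062960, chromosome 5, 75932827 to 75978458) stood at 701 (B) and 1227 (E) CPM in transgenic libraries, against 951 (D) and 1438 (F) CPM in control libraries. Each genotype thus had 1 lower and 1 higher library, and the lower of each lay below both higher ones. The transgenic mean was 964 ± 372 CPM and the control mean 1195 ± 344 CPM (SD, n = 2 each). The log2 fold change was -0.31 (SE 0.35, 95% interval -1.20 to 0.58; edgeR quasi-likelihood adjusted p = 1). It was 0.04 without library B and 0.02 without library F, and -0.78 without library E.

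Flt1 showed the same order of libraries as Kdr. It stood at 211 (B) and 377 (E) CPM in transgenic libraries, against 283 (D) and 401 (F) CPM in control libraries (chromosome 5, 147561604 to 147726011). The log2 fold change was -0.22 (SE 0.33, 95% interval -1.06 to 0.62; edgeR quasi-likelihood adjusted p = 1), with 0.14 without B, 0.06 without F and -0.70 without E. Gene counts do not tell the membrane-bound form of Flt1 from its soluble form.

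Flt4 had the largest ratio of log2 fold change to standard error in the family. It stood at 81.4 (B) and 122 (E) CPM in transgenic libraries, against 114 (D) and 137 (F) CPM in control libraries (chromosome 11, 49609263 to 49652739). The transgenic mean was 102 ± 28.8 CPM and the control mean 125 ± 16.8 CPM (SD, n = 2 each). The log2 fold change was -0.30 (SE 0.22, 95% interval -0.87 to 0.27; edgeR quasi-likelihood unadjusted p = 0.235, adjusted p = 1). It stayed below 0 with any 1 library left out, at -0.04 without B and -0.63 without E.

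The neuropilins differed from each other in the order of libraries. Nrp1, the co-receptor that binds VEGF-A together with Kdr, was at 792 (B) and 992 (E) CPM in transgenic libraries, against 838 (D) and 1059 (F) CPM in control libraries (chromosome 8, 128359073 to 128505462). Nrp2, the co-receptor known for VEGF-C and lymphatic vessels, was at 128 (B) and 115 (E) CPM in transgenic libraries, against 145 (D) and 107 (F) CPM in control libraries (chromosome 1, 62703285 to 62818695). So Nrp1 was higher in E and F, and Nrp2 in B and D. The log2 fold changes were -0.09 for Nrp1 (SE 0.20) and -0.05 for Nrp2 (SE 0.17; edgeR quasi-likelihood adjusted p = 1 for both). Without library F that of Nrp1 was 0.09, and without D that of Nrp2 was 0.19. The table lists Mir1903 within Nrp1, with counts equal to between 0.959% and 1.22% of those of Nrp1, and 2 predicted genes within Nrp2 at no more than 0.359%. How the counting treated reads over 2 genes is not given in the sources used here.

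All 9 log2 fold changes lay below 0, with a median of -0.16, where 50.4% of all genes tested did and the median of all genes was -0.0013. The 9 genes are read from the same 4 libraries, and with 1 library left out the sign changed for 8 of them, all but Flt4. With the Y-linked level of each library as a covariate, the values of Vegfa, Vegfb and Nrp2 turned to 0.68 (SE 0.52), 0.34 (SE 0.39) and 0.49 (SE 0.37), while those of the other 6 stayed below 0, down to -0.87 (SE 0.78) for Kdr. No gene of the family passed in that fit (edgeR quasi-likelihood adjusted p = 1 for all 9).

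**Figure D2:**
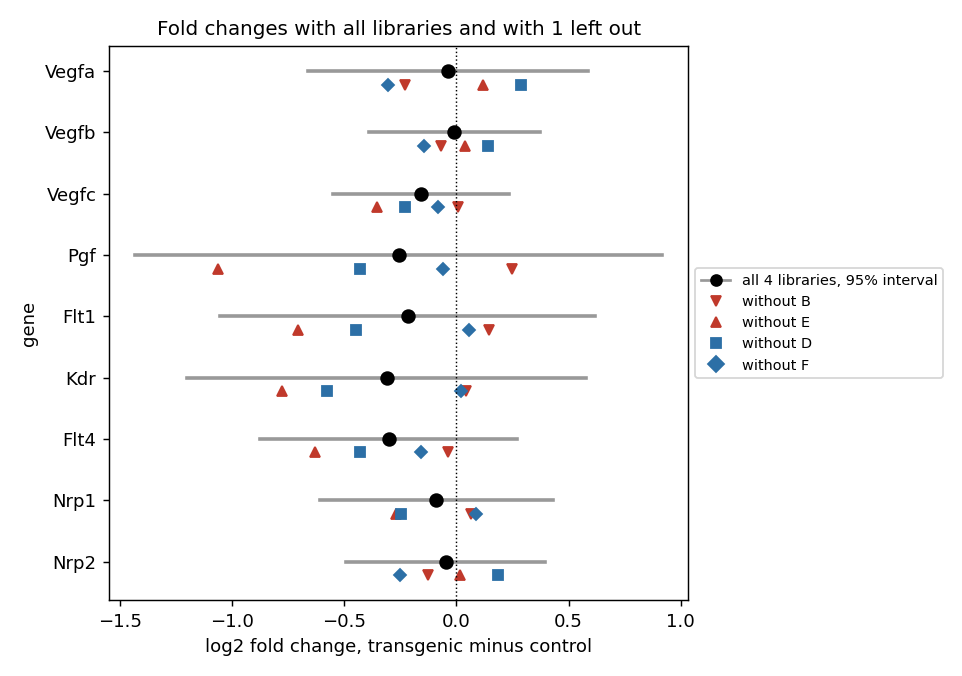
Log2 fold change of transgenic minus control libraries (horizontal axis) for the 9 genes, with all 4 libraries (black, grey bar for the 95% interval) and with 1 library left out (coloured symbols). All intervals contain 0, and the value of Pgf moves from -1.06 without E to 0.25 without B.

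Per length, Nrp1 and Kdr were the most abundant of the family and Pgf the scarcest. On the RPKM scale the authors deposited (reads per kilobase and per 1000000 reads), Nrp1 averaged 127 over the 4 libraries (108 to 148), Kdr 121 (77.4 to 163) and Vegfa 62.6 (51.4 to 75). Nrp1 led in B and D and Kdr in E and F, so those neighbours did not differ beyond their spread, while the lowest Kdr library lay above the highest Vegfa library. Flt1 averaged 22.5 RPKM, Vegfc 13.4, Flt4 11.3, Nrp2 8.53 and Vegfb 7.48, and each of these overlapped the next in range. Pgf averaged 1.55 RPKM, below every library of any other member. The order by mean RPKM was identical for all 9 genes when levels were computed from the counts on TMM-scaled library sizes. Of the summed RPKM of the 4 ligands, Vegfa made up 77.9% in B and 69.9% in E, against 76.7% in D and 68.3% in F.

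The receptors of the family kept close ratios to the general endothelial markers, and markers of other cell types varied with them as well. Across the 4 libraries Kdr spanned 1.04 on the log2 CPM scale, and its ratio to the geometric mean of 20 pan-endothelial markers spanned 0.34. That log2 ratio was 1.47 in B and 1.66 in E, against 1.52 in D and 1.81 in F. Flt1 spanned 0.93 in level and 0.23 as a ratio to the markers, and Flt4 spanned 0.75 in level and 0.12 as a ratio. Among the 13 marker lists, the one whose mean lay nearest to Kdr in its deviation from the mean of the 4 libraries was that of mural cells, the pericytes and smooth muscle of vessel walls (root mean square distance 0.0465 on the log2 scale). It deviated by -0.57 in B and 0.31 in E, against -0.15 in D and 0.41 in F, beside -0.57 and 0.24 against -0.13 and 0.47 for Kdr. The list of Car4-high alveolar capillary cells, a population known for high Kdr, lay at 0.0625, fibroblast markers at 0.0963 and the pan-endothelial list at 0.131. For Flt1 the mural list was again the nearest, at 0.0251 beside 0.103 for the pan-endothelial list, whereas for Flt4 the pan-endothelial list was the nearest at 0.0471. In bulk libraries, fewer endothelial cells and less of a receptor's RNA in each cell cannot be told apart from a gene's level alone.

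Relative to the endothelial markers, Flt4 lay lower in both transgenic libraries. Its log2 ratio was -1.62 in B and -1.67 in E, against -1.54 in D and -1.58 in F, a difference of -0.09. The exact two-sided permutation p was 0.333, the smallest that 2 libraries against 2 can give (adjusted p = 0.815 over 11 ratios). Flt1 relative to Kdr lay higher in both transgenic libraries, with log2 ratios of -1.73 in B and -1.70 in E, against -1.75 in D and -1.84 in F (difference 0.08, exact permutation p = 0.333, adjusted p = 0.815). Expressed as a plain ratio of CPM, Flt1 was 0.302 of Kdr in B and 0.308 in E, against 0.297 in D and 0.279 in F. The other 9 of the 11 ratios overlapped between the groups, while 23.9% of all genes tested did not overlap.

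Nrp2 did not follow the endothelial markers. Its log2 ratio to them was -0.97 in B and -1.75 in E, against -1.19 in D and -1.93 in F, a span of 0.96 where its level alone spanned 0.43. The log2 ratio of Nrp1 to the same markers spanned 0.31 where its level alone spanned 0.42. It was 1.65 in B and 1.35 in E, against 1.34 in D and 1.37 in F, so that only B stood apart.

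**Figure D3:**
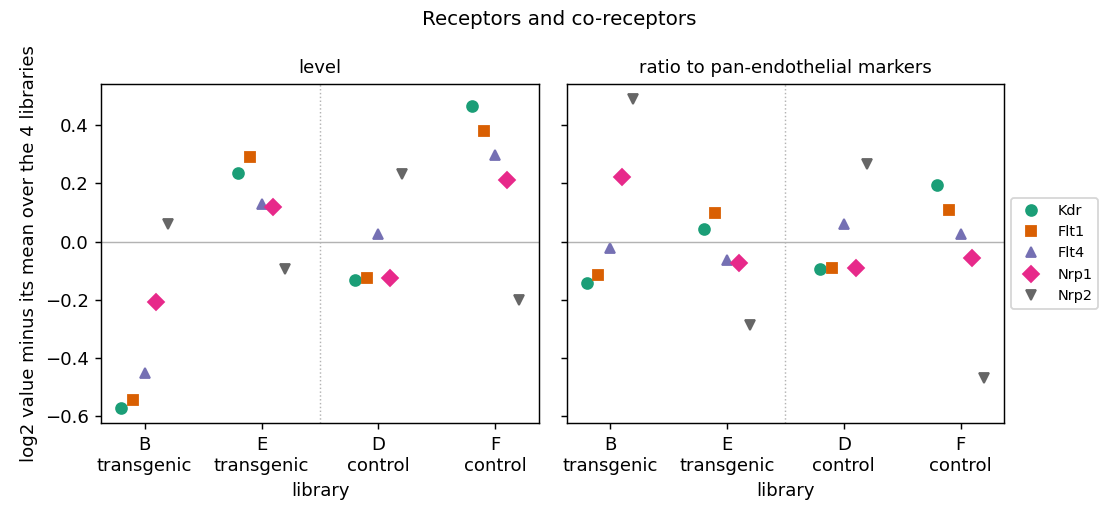
Log2(CPM + 0.5) of the 5 receptor and co-receptor genes (left) and their log2 ratio to the mean of 20 pan-endothelial markers (right), each minus its own mean over the libraries (vertical axis), in transgenic B and E and control D and F. Kdr, Flt1 and Flt4 draw together on the right, where their spans are 0.34, 0.23 and 0.12, while Nrp2 spreads to 0.96.

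Vegfa varied with epithelial markers rather than with the receptors Kdr, Flt1 and Flt4. Within the family its profile lay nearest to that of the co-receptor Nrp2 (root mean square distance 0.09). Among the marker lists the nearest were the pan-epithelial list (0.122) and the alveolar type 1 list (0.154). Vegfa lay at 0.481 from the pan-endothelial list. Relative to the geometric mean of 15 alveolar type 1 markers its log2 ratio was 1.02 in B and 1.26 in E, against 1.02 in D and 1.38 in F, a span of 0.36 beside 0.59 for its level. The summed level of those markers was 4035 (B) and 2770 (E) CPM in transgenic libraries, against 4159 (D) and 2483 (F) CPM in control libraries. Relative to Kdr, Vegfa was 0.522 in B and 0.233 in E, against 0.423 in D and 0.186 in F, as a ratio of CPM. This ligand to receptor ratio thus varied more within each genotype than between them (difference of the log2 means 0.32, exact permutation p = 0.667, adjusted p = 0.815). Whether the mix of cells in each library sets these values was not tested.

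**Figure D4:**
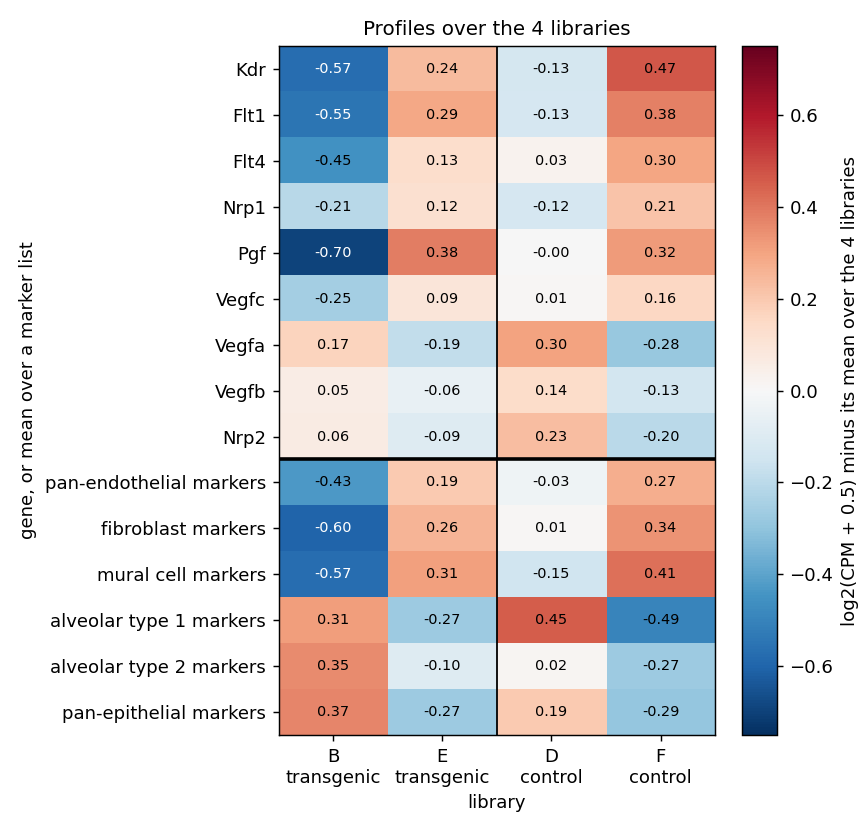
Log2(CPM + 0.5) minus its mean over the 4 libraries (colour and printed value) for the 9 genes, above the line, and for the mean of 6 marker lists, below it. Kdr, at -0.57 in B and 0.24 in E against -0.13 in D and 0.47 in F, shares its order with the pan-endothelial, fibroblast and mural cell lists, and Vegfa has the order of the alveolar type 1 list, which mesothelial markers also had.

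The genes whose profile over the 4 libraries lay nearest to each member were sought among the 12588 genes averaging at least 5 CPM, by the root mean square distance of centred log2 values. For Flt1 they were Tmem100, a pan-endothelial marker of the list above (distance 0.00928), Mxra7 (0.0143) and Tgfbr3 (0.0165). Those of Kdr were Kitl (0.0268), Pllp (0.0272) and Lhfp (0.0283), those of Flt4 Cmtm3 (0.00724), Rnd2 (0.0126) and Tal1 (0.0137), and those of Nrp1 Tln2 (0.0046), Golim4 (0.0118) and Nuak1 (0.013). Vegfa lay nearest to Cryab (0.0231), H2-K2 (0.0258) and Spc24 (0.0261), and Nrp2 to Npnt (0.0117), Mms22l (0.0157) and Pkmyt1 (0.017). Npnt is on the fibroblast marker list, which as a whole lay at 0.474 from Nrp2. Vegfb lay nearest to Mrpl28 (0.00749), Dcun1d1 (0.00863) and Ephb6 (0.00906). The neighbours of Vegfc were Prss23, of the artery and vein list (0.00739), Timp3 (0.0096) and Dgke (0.0126). Those of Pgf were Svep1 (0.0134), Gm12715 (0.0195) and Arhgap20 (0.0437). Within the family the closest pairs were Flt1 and Kdr (0.0521) and Vegfb and Nrp2 (0.0603), and the farthest was Vegfa and Pgf (0.617). With 4 libraries many genes share any profile, so these distances describe the libraries only.

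Among genes known to rise in endothelial cells given VEGF-A, most log2 fold changes lay below 0, but 0 of the 20 passed in edgeR's quasi-likelihood test. Of the 20, 18 had log2 fold changes below 0 (median -0.29), 9 had both transgenic values below both control values and 1 had them above, while 12% of all genes tested lay lower in that way and 11.9% higher. Of the pan-endothelial markers, 20 of the 20 lay below 0 too (median -0.22). So did 7 of the 7 Car4-high capillary markers (median -0.37), a list that shares Apln with the response genes. Below 0 were also 11 of the 11 artery and vein markers (median -0.18) and 6 of the 7 general capillary markers (median -0.17). Without library B those medians were 0.05 (pan-endothelial), -0.0089 (Car4-high), 0.06 (artery and vein) and 0.12 (general capillary). That of the response genes was then -0.18. The part of endothelial cells in the values of the response genes was not tested. Of the 20 pan-endothelial markers, 1 lay lower in both transgenic libraries. The smallest p belonged to the transcription factor genes Egr3, Nr4a1 and Nr4a2, which many stimuli other than VEGF-A induce. Egr3 was at 6.06 (B) and 3.63 (E) CPM in transgenic libraries, against 11.8 (D) and 9.23 (F) CPM in control libraries (log2 fold change -1.12, SE 0.30). Nr4a1 averaged 271 ± 22.5 CPM in transgenic libraries and 374 ± 24 CPM in control libraries, and Nr4a2 at 16.9 ± 2.51 and 23.9 ± 1.67 CPM (SD, n = 2 each).

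Dll4 and Adamts1, named after their values were seen, were the other genes of this list with an unadjusted p under 0.05. Dll4, the Notch ligand of arterial and sprouting endothelial cells, stood at 90.5 (B) and 117 (E) CPM in transgenic libraries, against 142 (D) and 140 (F) CPM in control libraries (log2 fold change -0.44, SE 0.15). Adamts1, a secreted protease that can bind VEGF-A, stood at 379 (B) and 373 (E) CPM in transgenic libraries, against 484 (D) and 462 (F) CPM in control libraries (-0.33, SE 0.12). Leukocyte markers ran the other way, with 8 of 12 higher in both transgenic libraries, beside 11.9% of all genes tested. Their summed level was 121 (B) and 157 (E) CPM in transgenic libraries, against 74.6 (D) and 98.4 (F) CPM in control libraries. Their median log2 fold change was 0.83, and 0.03 with the Y-linked level as a covariate. The part of leukocytes in the values of Dll4 and Adamts1 was not tested. Neither Dll4 nor Adamts1 passed (edgeR quasi-likelihood adjusted p = 1). With 1 library left out the median of the VEGF-A response list ran from -0.48 to -0.15. With the Y-linked level as a covariate it was -0.35, in a fit that cannot tell sex from genotype.

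Lymphatic endothelial cells are the cells with which Flt4, Vegfc and Nrp2 are associated. In these libraries the lymphatic list was not the nearest to any of them. It lay at 0.167 from Flt4, beside 0.0471 for the pan-endothelial list, and at 0.12 from Vegfc, beside 0.119 for that list. From Nrp2 it lay at 0.259, beside 0.185 for the pan-epithelial list. Of 6 lymphatic markers, 6 had both transgenic values below both control values, against 12% of all genes tested, and 0 of the 6 passed in edgeR's quasi-likelihood test. Lyve1, a hyaluronan receptor, stood at 216 (B) and 248 (E) CPM in transgenic libraries, against 255 (D) and 300 (F) CPM in control libraries (log2 fold change -0.26, SE 0.14). Mmrn1 was at 20.4 (B) and 22 (E) CPM in transgenic libraries, against 24.3 (D) and 25.8 (F) CPM in control libraries. Prox1, the transcription factor that specifies lymphatic identity, was named after its values were seen and stood at 7.64 (B) and 8.86 (E) CPM in transgenic libraries, against 9.43 (D) and 9.47 (F) CPM in control libraries. The median of the list was -0.36, and -0.44 to -0.21 with 1 library left out. The Y-linked genes were lower in both transgenic libraries too, and with their level as a covariate the median was -0.35. With 4 libraries in that order, this fit cannot tell sex from genotype.

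Of the ligands and partners outside the 9, Vegfd, the other ligand of Flt4, led by p. Vegfd, listed under its older name Figf, stood at 2.36 (B) and 4.40 (E) CPM in transgenic libraries, against 5.32 (D) and 5.31 (F) CPM in control libraries (log2 fold change -0.65, SE 0.33; edgeR quasi-likelihood adjusted p = 1). Both transgenic libraries lay below both controls. The next were the semaphorin gene Sema3d (-0.34, SE 0.29) and the plexin gene Plxnd1 (-0.22, SE 0.20), both with overlapping groups. Of the 15 genes in this list, 9 had values below 0 (median -0.11), 2 lay lower in both transgenic libraries and 0 higher, beside 12% and 11.9% of all genes tested, so the share was near that of all genes, and 0 passed.

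Signalling genes below the receptors were close to evenly split. Of 40, 22 had log2 fold changes below 0 and 18 above (median -0.03), with 5 higher and 3 lower in both transgenic libraries where 23.9% of all genes did not overlap, and 0 passed. Those with the smallest p were the protein kinase C gene Prkca (0.19, SE 0.10), the adaptor gene Sh2d2a, under 1 CPM in every library (0.59, SE 0.33), and the exchange factor gene Vav3 (-0.24, SE 0.13). All 7 genes of the angiopoietin and Tie system, which stabilises vessels beside VEGF, had values below 0 (median -0.20), with overlapping groups in all 7. The pan-endothelial markers, a list that also holds Tek, Tie1 and Ptprb, had a median of -0.22 with 20 of 20 below 0. By p, the angiopoietin and Tie genes were led by the scarce Angpt4 (-0.77, SE 0.54), by Angpt2 (-0.20, SE 0.17) and by the receptor gene Tie1 (-0.26, SE 0.23). Without library B the median of the angiopoietin and Tie list was 0.10.

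Genes of the hypoxia response, to which Vegfa belongs in most tissues, were spread around 0. Of 25, 14 had values above 0 (median 0.04), 5 lay higher and 0 lower in both transgenic libraries, beside 11.9% and 12% of all genes tested, and 0 passed. Pdk1, a kinase that restrains pyruvate oxidation, was at 36.2 (B) and 33.1 (E) CPM in transgenic libraries, against 30.5 (D) and 28.7 (F) CPM in control libraries (log2 fold change 0.23, SE 0.11). Hk2, a hexokinase gene, was at 23.2 (B) and 17 (E) CPM in transgenic libraries, against 16.5 (D) and 16 (F) CPM in control libraries. Egln1, encoding the prolyl hydroxylase that marks hypoxia-inducible factors for degradation, was at 168 (B) and 66.1 (E) CPM in transgenic libraries, against 68.5 (D) and 62.5 (F) CPM in control libraries. Its difference rested on library B, and among the alternatives run it was called only without E (edgeR quasi-likelihood adjusted p = 0.0346).

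**Figure D5:**
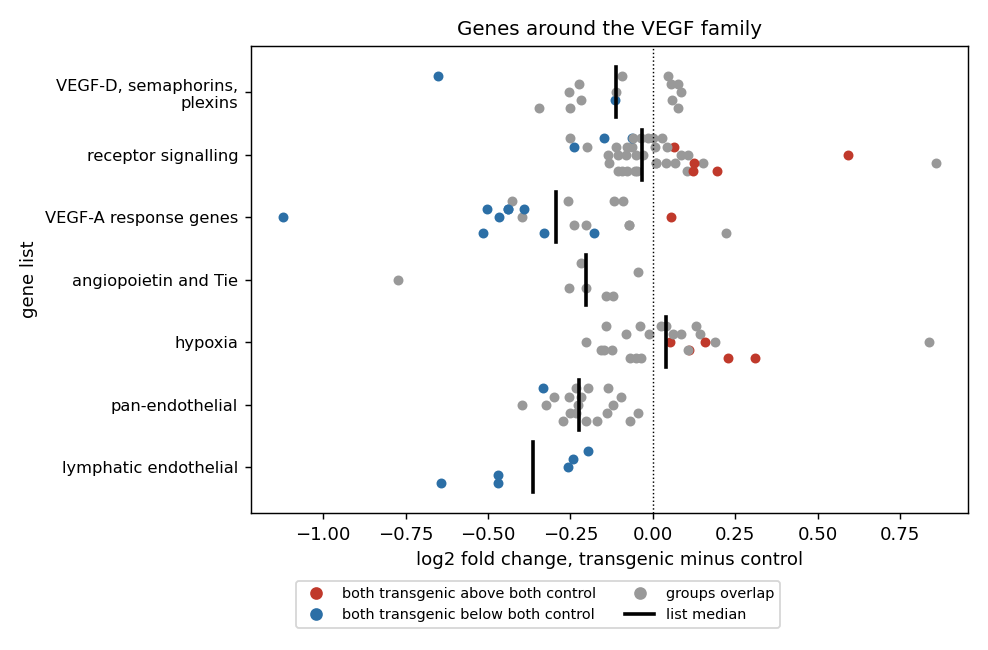
Log2 fold change of transgenic minus control libraries (horizontal axis) for each gene of 7 lists around the VEGF family (rows), coloured by whether both transgenic libraries lie above or below both controls, with list medians as bars. The medians are -0.29 for the VEGF-A response genes and -0.36 for the lymphatic markers, and near 0 for receptor signalling (-0.03) and hypoxia (0.04).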

How the data were processed

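Polyadenylated lung RNA of 2 IL-33 transgenic and 2 control libraries was measured. The submitters' processing notes name featureCounts version 1, TopHat2 version 2 and Bowtie version 1, with mm10 and GRCm38 as builds (the same assembly). Annotation release and strand setting: not given in the sources used here. The authors deposited whole-number counts per gene, not normalized, and RPKM values beside them, scaled per the file headers by a length column and used here only to compare levels between genes.

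Members were found by gene name. Other symbols came from GENCODE M21 by Ensembl identifier (42462 of 43346 matched). Low counts were removed by filterByExpr at a minimum count of 10 and total of 15, and the rest were scaled by TMM and tested with edgeR 4.0.16 in R 4.3.3 (quasi-likelihood, legacy setting, no covariate, Benjamini-Hochberg over all genes at 0.05). SE is the log2 fold change over the square root of F, and intervals use the fit's degrees of freedom. Ratios use log2(CPM + 0.5) and exact permutation. The library totals of 76120696 to 87723745 limit precision little beside the spread between libraries. Alternatives were 2 other scalings, no or a stricter filter, DESeq2 1.42.0, limma-voom (limma 3.58.1), the fit without the legacy setting, the Y-linked level as a covariate, and each library left out. As a check for a library deposited more than once, the counts of each pair were compared by chi-square, and no pair agreed within sampling noise.

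Members, lists and alternatives were chosen with earlier results of these data known. Named are the 9 members, 3 genes of each pathway list by p, 3 nearest profiles of each member, the 2 most abundant genes of a marker list, and a few genes named after their values were seen. Promoter sequences are from RefSeq (GRCm38.p6), matched by symbol for 9 of 9 members. A comparison of protein sequences was planned and not made.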

Additional observations from a re-analysis of the deposited data

How the results depend on the processing

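Of the 9 genes, 0 were called under any of the 12 alternatives to the test. Over all genes the count was 0 with all libraries, 1 by DESeq2 and between 0 and 15 with 1 library left out. Among the pathway lists 0 genes were called, and between 0 and 1 with 1 library left out. With the Y-linked level as a covariate Vegfa turned to 0.68, Vegfb to 0.34 and Nrp2 to 0.49, in a fit that cannot tell sex from genotype. With 1 library left out the log2 fold changes ran from -0.30 to 0.29 for Vegfa, -0.14 to 0.14 for Vegfb, -0.35 to 0.0080 for Vegfc, -1.06 to 0.25 for Pgf, -0.70 to 0.14 for Flt1, -0.78 to 0.042 for Kdr, -0.63 to -0.04 for Flt4, -0.27 to 0.089 for Nrp1 and -0.25 to 0.19 for Nrp2. The cause was not tested. The difference in log2 ratio ran from -0.14 to 0.17 for Vegfb to Vegfa, -1.01 to 0.42 for Pgf to Vegfa, -0.28 to 0.91 for Vegfa to Kdr and -0.24 to 0.12 for Vegfa to alveolar type 1 markers. For ratios to the endothelial markers it ran from -0.13 to 0.087 for Flt1, -0.24 to 0.047 for Kdr, -0.0015 to 0.30 for Nrp1, -0.19 to 0.59 for Nrp2 and -0.11 to -0.07 for Flt4. Flt1 to Kdr stayed between 0.03 and 0.13. A pseudocount of 1, or endothelial markers without Tek, Tie1 and Ptprb, turned no ratio. Of the 216 list medians recomputed for 18 lists, 25 moved by more than the spread between libraries and 20 changed sign. No paired analysis was possible because the labels give the libraries letters and no shared replicate numbers. With 2 libraries per group the exact permutation test cannot reach 0.05, and a lone library left in a group is assumed to vary like the other group.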
